A study of Mus musculus with 19 samples.

Results

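The peaks described here are sites of YAP binding gained in mouse liver after 7 days of YAP induction. They were chosen by a positional rule: a peak of the 7-day list (7 d) was called gained when it shared no base with a YAP peak of livers without the transgene (WT). By this rule 1374 of 1478 YAP peaks at 7 d, or 93.0%, were gained, and the other 104 were shared with WT. This share was fixed by the rule and is given as a description. Across the whole series, 6 peak lists held 82869 peaks.

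YAP was profiled by chromatin immunoprecipitation and sequencing (ChIP-seq), with the antibody YAP1 63.7 on liver tissue that had been crosslinked first with the protein crosslinker DSG and then with formaldehyde. Both groups were on the C57BL/6 background, carried the ROSA26-rtTA-IRES-EGFP allele and received doxycycline food for 7 days. The 7 d group additionally carried tetYAP, a doxycycline-dependent transgene for activated YAP S127A, and the WT group did not. By the methods of the study, an albumin-driven Cre recombinase released the rtTA activator, so induction was directed at hepatocytes, whereas the antibody also reads YAP of every other liver cell. The labels do not state whether the WT livers carried this Cre. Each group comprised 3 libraries, which the authors merged before peaks were called, so each group is represented by 1 list, without a measure of the variation among livers. The 95% Wilson intervals below cover counting error over peaks or genes only.

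YAP is a transcriptional coactivator without a DNA-binding domain of its own. The kinases of the Hippo pathway phosphorylate it and hold it in the cytoplasm, and the S127A substitution removes a main phosphorylation site. In the nucleus YAP is tethered mostly to TEAD factors, which recognise the letters GGAATG, or CATTCC when read on the opposite strand, and in liver its activity is known for control of organ size, of regeneration and of the choice between hepatocyte and biliary fate.

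The sequences under gained peaks show these letters directly. The following stretches of the mm9 plus strand are centred on the peak summits. The first 3 are the gained peaks with the highest −log10 p-values, then follow the one of the 12 highest with most copies, the promoters of 2 genes of the YAP pathway, and 1 strong promoter peak whose stretch lacked the letters. Capitals mark GGAATG and CATTCC.
Gm20388 intron, chr8:124758166-124758246: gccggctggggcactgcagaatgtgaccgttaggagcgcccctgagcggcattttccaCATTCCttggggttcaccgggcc
Tspan4 promoter, chr7:148662496-148662576: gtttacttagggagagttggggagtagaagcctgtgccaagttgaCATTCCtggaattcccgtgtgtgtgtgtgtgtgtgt
Aldh1l1 intron, chr6:90458349-90458429: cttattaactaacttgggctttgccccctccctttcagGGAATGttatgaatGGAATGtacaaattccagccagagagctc
intergenic, nearest coding gene Speer2, chr16:69791108-69791188: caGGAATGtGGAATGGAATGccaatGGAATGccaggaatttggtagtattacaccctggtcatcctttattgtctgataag
Ctgf promoter, chr10:24315069-24315219: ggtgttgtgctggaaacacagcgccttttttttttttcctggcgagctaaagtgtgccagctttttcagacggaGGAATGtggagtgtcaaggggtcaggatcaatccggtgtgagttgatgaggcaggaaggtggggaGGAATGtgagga
Jub promoter, chr14:55196625-55196705: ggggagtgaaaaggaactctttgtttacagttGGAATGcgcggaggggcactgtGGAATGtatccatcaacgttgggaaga
Nln promoter, chr13:104827812-104827892: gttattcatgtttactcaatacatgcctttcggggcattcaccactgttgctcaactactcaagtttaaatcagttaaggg
The Speer2 stretch held 4 copies within 81 bases, and the Nln stretch held 0, its 1 copy within 100 bp of the summit being outside it. Of the shared peaks, 2 of the 3 with the highest −log10 p-values are shown. The peak upstream of Alb held 1 copy in each orientation, whereas the peak in D5Ertd579e consisted of a repeated unit without the letters.
Alb upstream, chr5:90879172-90879252: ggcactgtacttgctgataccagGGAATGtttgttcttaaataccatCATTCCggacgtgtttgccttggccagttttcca
D5Ertd579e intron, chr5:37052213-37052293: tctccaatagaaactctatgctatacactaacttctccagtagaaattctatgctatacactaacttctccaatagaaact

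Gained peaks had a higher median fold enrichment than WT peaks, in 2 lists called at different depth. The merged libraries held 34260362 tags at 7 d and 54661175 tags in WT, a ratio of 0.627, while the 7 d list held 9.47 times as many peaks as the WT list of 156. Fold enrichment, the ratio of fragments over the summit to the local background, had a median of 5.89 in gained peaks, with quartiles of 5.02 and 7.12 and a maximum of 25.3. The median was 4.54 in the 104 shared peaks, measured at 7 d, and 3.80 over the WT list, whose highest value was 9.51. A fold of at least 10 was reached by 92 gained peaks, by 1 shared peak and by 0 of the 156 WT peaks. The median length was 331 bp in gained peaks, 334 bp in WT-only peaks and 481 bp in shared peaks. A shallower library needs a higher fold for a call, so the medians of called peaks are not set on an equal footing. These values describe 1 list per group and carry no test.

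A missing WT peak sets only an upper limit on WT enrichment. The background at a gained summit was scaled to the WT library, where it was 1.60 times higher, and the fold was computed at which a WT summit would have reached 6.08, the lowest −log10 p-value in the WT list. This limit had a median of 3.15 and ranged from 1.26 to 3.27. WT enrichment below the limit at these sites was not detectable. That gained peaks exceeded it at 7 d follows from their having been called at the lower depth and is not a result. Since liver tissue is a mixture of cells, binding in more cells and stronger binding per cell cannot be told apart.

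**Figure D1:**
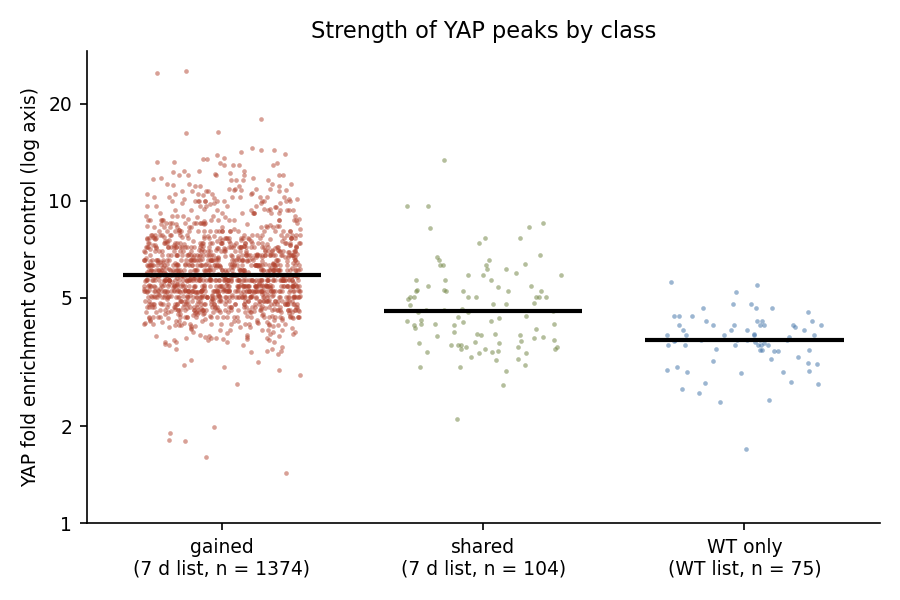
Fold enrichment of each YAP peak over the control (log axis) for gained and shared peaks of the 7 d list and for WT peaks not called at 7 d. Each point is 1 peak and each black bar is a median. Gained peaks reached 25.3 with a median of 5.89, shared peaks had a median of 4.54 and WT-only peaks of 3.69.

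The gained peak with the highest −log10 p-value, 117, lay at chr8:124757947-124758540 within an intron of Gm20388. Its fold was 25.3 and its pileup 116 fragments. The nearest protein-coding start was that of Gm22, at 35263 bp. Next came the promoter of Tspan4, which encodes a tetraspanin membrane protein, at chr7:148662264-148662813, with a fold of 24.9. It was the only one of the 12 highest gained peaks that also overlapped a YAP peak of livers induced for 3 days (3 d). Both values stood apart from the third, an intron of Aldh1l1, a folate enzyme, at chr6:90458058-90458892 with a fold of 17.9.

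The other 9 of these 12 peaks had folds from 13.2 to 16.3. In 5 of them the summit was in an intron: Nln, a peptidase (16.3), Ncald, a neuronal calcium sensor (16.2), Exph5 (13.9), Cbx7, a subunit of Polycomb complex 1 (14.4), and Bahcc1 (14.2). The Nln peak also overlapped a promoter. A further promoter peak was 652 bp upstream of 2700078E11Rik (13.2). The last 3 were intergenic, nearest to Rnf44 (13.5), Mrpl36 (14.6) and Speer2 (14.4), the last at 69583 bp from its start. All 12 overlapped a TEAD peak at 7 d, with TEAD folds from 38.4 to 73.8, and 8 of the 12 overlapped a TEAD peak of WT livers. By −log10 p-value the next promoter peaks lay in an intron of Ninj2 (12.9), at Tln1, the integrin adaptor talin (13.5), and at Gm608 (11.6). The peak in Ninj2 was 48123 bp from the nearest protein-coding start, that of Ninj2, so it owed its class to the start of a transcript of a gene that is not protein-coding. At all 15 sites named so far the fold needed for a WT call was at most 3.19.

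Gained peaks were placed near genes but mostly away from promoters. Of the 1370 gained peaks on assembled chromosomes, 243 overlapped a promoter, taken as the 2000 bp before and the 1000 bp after an annotated start. This was 17.7% (15.8 to 19.8), where promoters made up 5.76% of the bases. A further 582, or 42.5% (39.9 to 45.1), lay in gene bodies, which made up 36.0% of the bases, and 545, or 39.8% (37.2 to 42.4), were intergenic, against 58.2%. Whole peaks were classed by any overlap, with promoter first and then gene body, whereas the genome shares count single bases. A wide peak is thus intergenic less often than a single base, and the shares are not like measures. At the summit itself the annotation gave an intron in 660 peaks, intergenic sequence in 632, a UTR in 42, coding sequence in 19 and a non-coding exon in 17. Shared peaks were at promoters in 31 of 86 (36.0%, 26.7 to 46.6) and WT-only peaks in 5 of 66 (7.58%, 3.28 to 16.5), but these small classes came from few loci, described below.

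The median fold of gained peaks was 5.93 at promoters, 5.72 in gene bodies and 5.89 in intergenic sequence. A TEAD peak of WT livers overlapped 175 of 243 gained promoter peaks (72.0%, 66.1 to 77.3) and 254 of 545 intergenic ones (46.6%, 42.5 to 50.8). The summit lay a median of 16373 bp from the nearest protein-coding start, with quartiles of 3911 and 50667 bp, and 165 of 1370 (12%) were over 100 kb away. Upstream and downstream positions were balanced, with 680 of 1370 (49.6%, 47.0 to 52.3) upstream of that start.

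**Figure D2:**
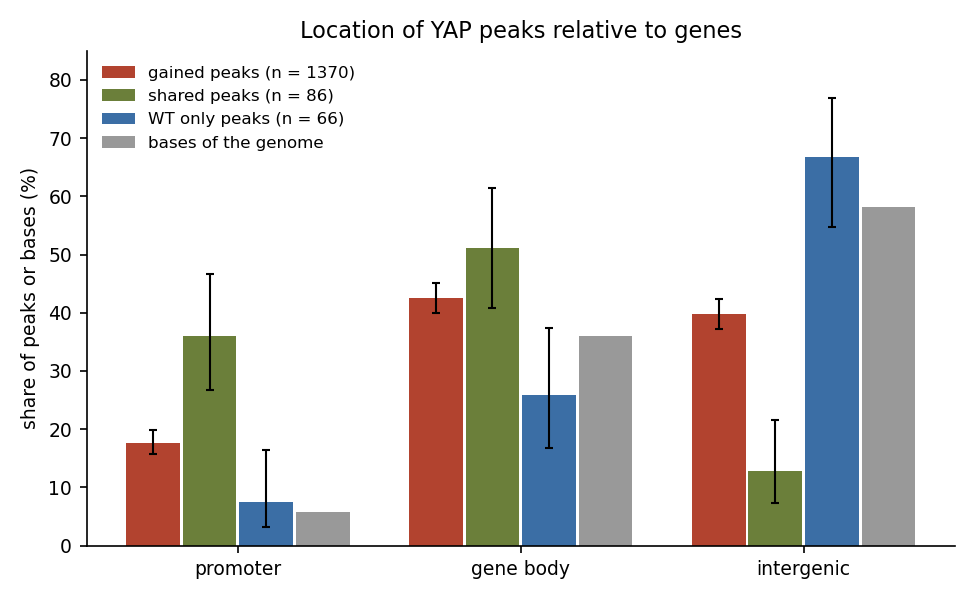
Share of YAP peaks at promoters, in gene bodies and in intergenic sequence (%), for gained, shared and WT-only peaks on assembled chromosomes, beside the share of genome bases. Error bars are 95% Wilson intervals. Gained peaks were at promoters in 17.7%, against 5.76% of bases. Whole peaks were classed by any overlap, and the genome by single bases.

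Gained peaks lay on every numbered chromosome, and few were on X. The numbered chromosomes held between 38.6 (chromosome 18) and 76.3 (chromosome 11) gained peaks per 100 Mb. The X chromosome held 14 peaks in 167 Mb, or 8.40 per 100 Mb. Per 100 protein-coding genes the X chromosome held 1.51 gained peaks, and the numbered chromosomes 4.16 to 9.55. The TEAD list at 7 d had 370 peaks per 100 Mb on X and 1191 to 2354 on the numbered chromosomes. The labels do not give the sex of the mice.

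Gained peaks were mostly solitary, and WT peaks were crowded, but the rule builds in part of this contrast. No other gained summit lay within 10 kb of 1274 of the 1374 gained summits (92.7%, 91.2 to 94.0), and the median distance to the nearest one was 327898 bp. In the WT list, 137 of 156 summits (87.8%, 81.8 to 92.1) had another WT summit within 10 kb, and the median distance was 1012 bp. The rule leaves 7 d peaks at crowded WT peaks out of the gained class. Of the shared peaks, 91.3% had a shared neighbour within 10 kb. Over the whole 7 d list, 198 of 1478 summits (13.4%, 11.8 to 15.2) had another within 10 kb, with a median distance of 277588 bp. Chained by gaps of at most 10 kb, the WT peaks formed 32 runs, and the longest 3 held 111 of the 156 peaks (71.2%, 63.6 to 77.7). These were 60 peaks at chr1:90108498-90207542 over Ugt1a1, Heatr7b1, Hjurp and Trpm8, 27 at chr7:46506151-46569631 nearest to Gm16387, and 24 on the unplaced sequence X_random. The chr1 run contained 82 peaks of the 7 d list, the chr7 run 2.

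**Figure D3:**
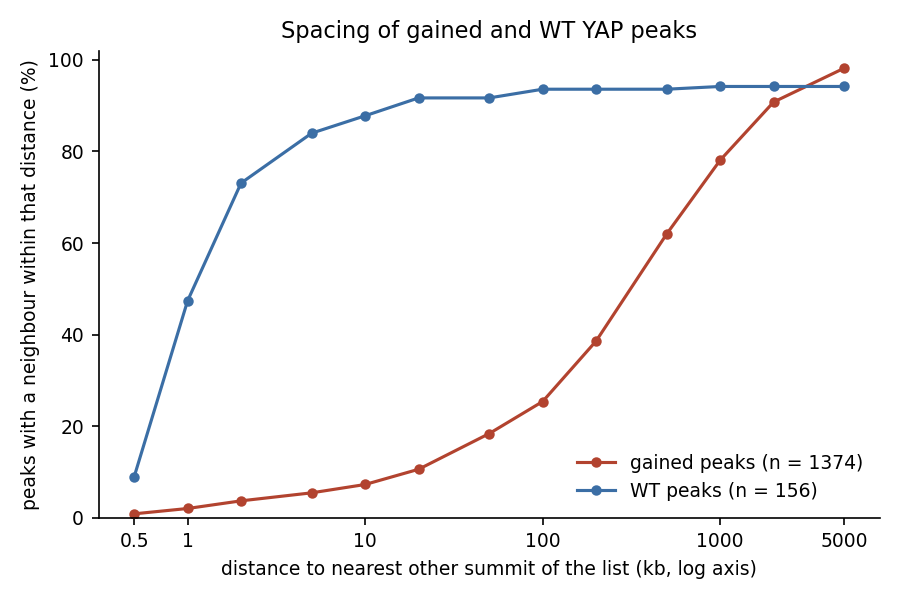
Share of gained and of WT YAP peaks (%) with another summit of the same list within the distance on the x axis (kb, log axis). Within 10 kb a neighbour was found for 7.28% of gained and for 87.8% of WT peaks. Over the whole 7 d list, which is not drawn, it was 13.4%.

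The exceptions among gained peaks fell into 41 runs: 35 of 2 peaks, 4 of 3, 1 of 5 and 1 of 13. The run of 13 lay over Heatr7b1, Hjurp and Trpm8 on chromosome 1, inside the crowded WT run, and each of its peaks was within 10 kb of a WT summit. Its folds ranged from 3.05 to 8.38. A run of 3 over Ugt1a1, with folds from 2.70 to 4.35, lay beside it. In all, 18 gained peaks were within 10 kb of a WT summit, 17 of them on chromosome 1. Their median fold was 3.58, against 5.89 in the other 1356, and GGAATG was within 100 bp of 3 of the 18 summits. Without these 18 peaks, 84 of 1356 (6.19%, 5.03 to 7.61) had a gained neighbour within 10 kb, in place of 100 of 1374 (7.28%).

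The run of 5 was at Amotl2, which encodes an angiomotin that binds YAP and restrains it. Its peaks spanned 20248 bp of chromosome 9, none near a WT YAP summit. The strongest, with a fold of 10.7, was 16 bp from the start of Amotl2, and another was 813 bp upstream, with a fold of 5.08. One more, with a fold of 7.02, was in an intron, and the last 2, with folds of 5.46 and 5.24, were intergenic. Of the 5 sites, 3 overlapped a TEAD peak of WT livers and all 5 a TEAD peak at 7 d. Runs of 3 were found at Jub, the gene of the LIM protein Ajuba, which binds the LATS kinases (folds of 5.68, 10.3 and 5.04), and at Myl12b, a myosin regulatory light chain, with 2900073G15Rik (5.24, 6.55 and 10.8). The remaining run of 3, with folds of 1.43 to 1.90, was on the unplaced sequence Un_random.

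The letters of TEAD were concentrated at gained summits. GGAATG, read on both strands, was within 100 bp of the summit in 853 of 1370 gained peaks (62.3%, 59.7 to 64.8). Windows of the same length placed 1000 bp to either side held it in 11.5% (10.4 to 12.7), and all such windows of the genome in 10.9%. The same letters in reverse order, GTAAGG, were in 5.55% of gained windows and in 6.06% of the flanks. WT-only peaks held GGAATG in 7 of 66 (10.6%, 5.23 to 20.3) and shared peaks in 6 of 86 (6.98%, 3.24 to 14.4), both near the share of the genome. In gained peaks with a copy, the nearest one had its centre a median of 27.0 bp from the summit. Base composition differed less, with 48.0% G and C at gained summits and 45.3% in their flanks.

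**Figure D4:**
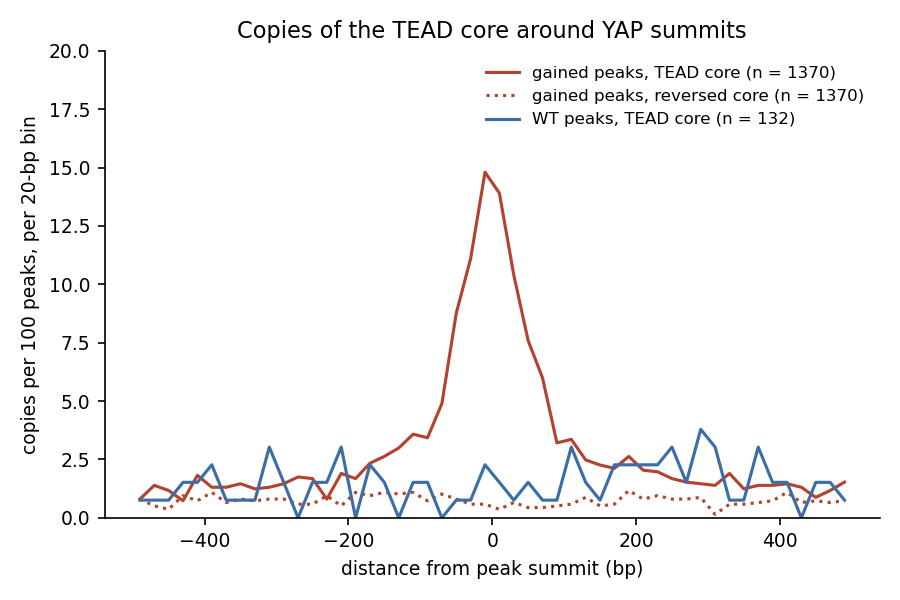
Copies of the TEAD core per 100 peaks in 20-bp bins of distance from the summit (bp), for gained and WT peaks, with the reversed core as a comparison. The core rose to 14.8 copies per 100 gained peaks beside the summit, and the WT and reversed profiles showed no such rise.

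More copies went with higher −log10 p-values, though not evenly from group to group. In gained peaks 234 of 1370 (17.1%, 15.2 to 19.2) held at least 2 copies within 100 bp, against 1.13% of flanking windows. When gained peaks were ordered by −log10 p-value and divided into 5 equal groups, the strongest group held at least 1 copy in 68.6% (62.9 to 73.8) and at least 2 in 27.0% (22.1 to 32.6). The weakest group held them in 55.5% (49.6 to 61.2) and 13.9% (10.3 to 18.5). In the groups between, from stronger to weaker, at least 1 copy was held by 68.6%, 65.3% and 53.3%. At least 2 were held by 17.9%, 14.2% and 12.4%. The letters were about as frequent at gained promoters (59.7%, 53.4 to 65.6) as in gene bodies (61.7%) and intergenic sequence (64.0%, 59.9 to 68.0).

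Copies had preferred neighbours and a preferred spacing. With 4 peaks of 6 or more copies left out, the base after GGAATG was T in 52.7% and C in 32.7% of 1112 copies, against 26.9% and 20.3% at copies in the flanks. Neighbouring copies on 1 strand started 9 bp apart, with 3 bases between them, in 30 gained peaks, and no other spacing from 6 to 40 bp was found in more than 6. The pair GGAATGNNNGGAATG was in 2.19% of gained windows (1.54 to 3.11), in 0 of 2740 flanking windows and in 0.00483% of windows of the genome. Peaks with the pair had a median fold of 7.47. Pairs of the spacing were found in a gained peak in an intron of Bahcc1 (fold 14.2), near Pim3, a survival kinase gene (12), upstream of Pelo (11.3) and at Ctgf (10.5). Pim3 and Pelo were picked from the 8 strongest peaks with the pair after their values were seen. Stretches centred on the pair are given for comparison of the 3 bases in the gap.
Bahcc1 intron, chr11:120114198-120114258: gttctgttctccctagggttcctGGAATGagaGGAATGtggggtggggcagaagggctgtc
intergenic near Pim3, chr15:88698149-88698209: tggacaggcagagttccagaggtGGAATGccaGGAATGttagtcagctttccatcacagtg
Pelo upstream, chr13:115880918-115880978: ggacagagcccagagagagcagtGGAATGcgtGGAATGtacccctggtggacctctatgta
Ctgf promoter, chr10:24315185-24315245: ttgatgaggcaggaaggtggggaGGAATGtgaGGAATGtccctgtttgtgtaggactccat
In all 4 stretches both copies stood on the same strand, 3 bases apart, because the stretches were chosen by this pair.

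Letters of other liver factors were raised to a smaller extent. The C/EBP letters TTGCNNAA were in 18.5% of gained windows (16.5 to 20.6) and in 8.14% of flanks, the FOXA letters TGTTTAC in 6.86% (5.64 to 8.32) against 2.66%, and the AP-1 letters TGANTCA in 10.8% (9.27 to 12.6) against 6.42%. The HNF4 letters AAGTCCA (5.26% against 3.80%) and the ETS letters CCGGAAG (1.31% against 0.985%) differed least from their flanks. All were read on both strands, and a match is not a bound site.

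Nearly all gained YAP peaks coincided with TEAD peaks at 7 d, 1359 of 1374 (98.9%, 98.2 to 99.3). In WT livers, 737 of the gained sites (53.6%, 51.0 to 56.3) already had a TEAD peak, and at 3 d 1259 (91.6%, 90.0 to 93.0) had one. The TEAD lists differed in length, with 5695 peaks in WT, 36446 at 3 d and 38984 at 7 d. These shares are therefore not on an equal footing. At a site without a TEAD call in WT, TEAD enrichment too weak for a call would not have been detected. YAP itself was called at 3 d at 17 of them (1.24%, 0.774 to 1.97), in a list of 110 peaks. Of the 104 shared peaks, 73 (70.2%, 60.8 to 78.1) had a TEAD peak in WT, 48 (46.2%, 36.9 to 55.7) one at 7 d, and 74 (71.2%, 61.8 to 79.0) a YAP peak at 3 d. Gained peaks with and without a WT TEAD peak had median folds of 6.08 and 5.68. Those with one were at promoters in 23.8% (20.9 to 27.0), those without in 10.7% (8.54 to 13.4). Of the 15 gained peaks without TEAD at 7 d, 4 were on unplaced sequences and 8 within 10 kb of a WT YAP summit.

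A gained summit was within 20 kb of a start in 1002 of 22225 protein-coding genes, or 4.51%, whereas a WT YAP summit was within that distance of 22 genes, or 0.0990%. A gained peak overlapped the promoter of 227 genes, or 1.02%. Most of the 1002 genes, 934, had 1 gained peak, 52 had 2 and 16 had at least 3. Across 10 lists of genes, 43 of 272 members (15.8%, 12 to 20.6) had a gained peak within 20 kb, 15 of them over the promoter, and 1, Alb, also had a WT peak.

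Among targets of YAP and TEAD, 5 of 22 members of a general target signature had a gained peak within 20 kb (22.7%, 10.1 to 43.4), against 4.51% of all genes. The strongest was that of Amotl2. The gained peak at Ctgf, the connective tissue growth factor gene and a classical YAP target, was 104 bp upstream of its start at chr10:24314921-24315384. It had a fold of 10.5, a pileup of 48 and 3 copies of GGAATG within 100 bp, and a WT peak there would have needed a fold of 3.15. Nuak2, a kinase of the AMPK family, had a peak at 6295 bp (fold 8.30) and F3, tissue factor, at 12814 bp (6.36). Other widely used targets had none called within 20 kb, and YAP enrichment too weak for a call would not have been detected there. The nearest gained peak was 263 kb from Cyr61 and 992 kb from Ankrd1, although TEAD at 7 d had 4 and 7 peaks within 20 kb of these genes, with folds of up to 36.5 and 22.6.

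Of the listed Hippo pathway genes and TEAD partners, 7 of 32 had a gained peak (21.9%, 11.0 to 38.8), against 4.51% of all genes. Wwc2, of the KIBRA family that activates LATS, had a promoter peak with a fold of 12, and its relative Wwc1 an intronic peak at 16835 bp (5.68). Wwtr1, which encodes the YAP paralogue TAZ, had a peak 283 bp upstream of its start (6.11). The others were Amotl2, Ajuba, the phosphatase gene Ptpn14 and Vgll4, a competitor of YAP for TEAD. In 5 of the 7 genes, out of 32 listed, a gained peak covered the promoter, where 1.02% of all genes had one. Listed genes with none called within 20 kb included Tead1, Tead4, Lats1 and Lats2, named after their values were seen. YAP enrichment too weak for a call would not have been detected at these genes.

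The genes of the actin cytoskeleton and of adhesion, the longest list, had the highest count, 11 of 38 (28.9%, 17.0 to 44.8). The share of all genes was 4.51%. Tln1 led, with its peak 59 bp from the start and a fold of 13.5. Myh9, non-muscle myosin heavy chain, had a peak 587 bp upstream (7.20), Actb, cytoplasmic actin, one 3202 bp upstream (5.89), and Lmna, nuclear lamin A, one at 11793 bp (5.85). Of the AP-1 family, 5 of 16 had a gained peak (31.2%, 14.2 to 55.6), the highest share of a list, again against 4.51%. They included Junb (10.3, at 18590 bp and in an intron of Rnaseh2a), Fosl2 (8.30), Fos (7.86) and Atf3 (5.89, 241 bp upstream).

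In 5 of 30 genes of hepatocyte function a gained summit was within 20 kb (16.7%, 7.34 to 33.6), against 4.51% of all genes. They included Hp, haptoglobin (5275 bp, fold 6.24), G6pc, glucose-6-phosphatase (11853 bp, 6.08), Apoe (11235 bp, 5.68) and Alb, albumin (6503 bp, within coding sequence, 5.03). Within 5 kb, 0 of these 30 genes had a gained summit, against 1.85% of all genes. A gained promoter peak was found at 0, against 1.02% of all genes. At such low shares a list of 30 is too short to tell 0 from the share of all genes. Liver transcription factors had 2 of 24 within 20 kb (8.33%, 2.32 to 25.8). They were Nr0b2 and Nr1h4, encoding SHP and FXR of the bile acid response, both with a fold of 5.24. Within 5 kb this list also had 0 members, and with 24 genes the same limit holds. The nearest gained peak to Hnf4a, a central hepatocyte factor, was 25.1 kb away (5.17).

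Of the biliary and progenitor genes, 4 of 26 had a gained peak within 20 kb (15.4%, 6.15 to 33.5), against 4.51% of all genes. They were Krt18 (9.17), Krt8 (4.37), Notch1 (6.11) and Notch2 (5.46). The nearest to Sox9, a biliary transcription factor, was 53.9 kb away (5.68). Krt18 and Krt8 are neighbours on chromosome 15, and the peak counted for Krt8 was also 1 of the 2 within 20 kb of Krt18. As for the liver transcription factors, the interval of each list that follows included the 4.51% of all genes. Chemokines and inflammatory signalling had 3 of 27, with folds of 9.82 at Tnfaip3, 6.55 at Cxcl10 and 5.20 at Socs3. The cell cycle had 2 of 31, Mcm5 (11.1) and Ccnd1 (5.85, 1942 bp upstream). The peak counted for Mcm5 was intergenic and 19955 bp from its start, near the limit of 20 kb. Genes of other tissues had 1 of 31, Olig2 (5.85).

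**Figure D5:**
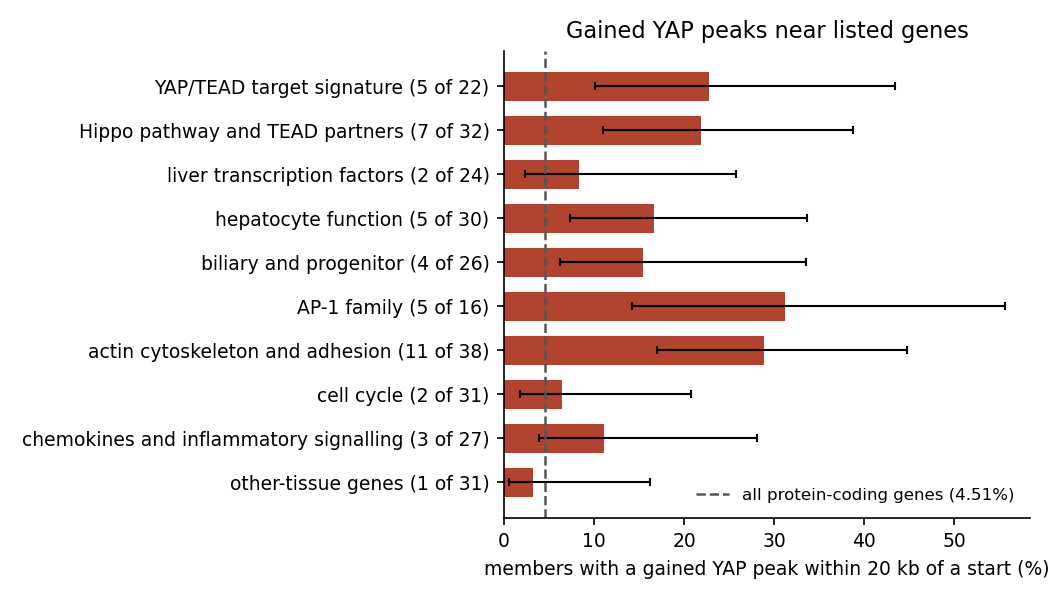
Share of members of each gene list with a gained YAP peak within 20 kb of a transcription start (%), with 95% Wilson intervals. The dashed line is the share of all protein-coding genes, 4.51%. The actin and AP-1 lists had 28.9% and 31.2%, and the genes of other tissues 3.23%.

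The shared peak with the highest −log10 p-value lay at chr5:90878737-90879459, 10703 bp upstream of Alb. It had a fold of 13.4 and 77 fragments at 7 d, against 4.64 and 38 in WT. TEAD at 7 d had a fold of 72.3 there. The next by −log10 p-value, nearest to Dpy19l1 on chromosome 9, had 6.14 at 7 d and 4.21 in WT, and the third, in an intron of D5Ertd579e, had 6.35 and 4.67. Neither held GGAATG within 100 bp of the summit, and TEAD folds at 7 d were 5.41 and 6.76. The WT peaks without a 7 d call that had the highest −log10 p-values, 19.1 to 17.7, were a neighbour of the D5Ertd579e peak (fold 5.60), one in Ugt1a1 (4.05) and one in Mid1 on X (2.54), again without GGAATG. By fold, peaks nearest to Gm16387 (5.47) and Gm12033 (5.20), named after their values were seen, came after the first of these. Of the WT list, 81 of 156 peaks (51.9%, 44.1 to 59.6) were found at 7 d.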

How the data were processed

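ChIP-seq libraries of mouse liver, 3 per group for YAP in WT livers and at 7 d, were assigned to groups from the sample labels. By the submitters' processing notes and the study's methods, the authors aligned reads to mm9 with BWA 0.6.2, merged the replicates and called peaks with MACS2 2.0.9. Per the file headers, the p-value cutoff was 1e-05 and the control held 167176362 tags; this control came from published data. The deposited lists give positions, the pileup as a signal (fragments over the summit), the fold enrichment as a ratio of pileup to local background, and the −log10 p-value and −log10 q-value of each peak. Lists of TEAD peaks and of YAP peaks at 3 d were used for overlaps only. No deposited column of samples was left unused.

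Here, peaks were compared by overlap of at least 1 bp. Locations and genes came from GENCODE M1 on NCBIM37, which is mm9, where peaks on unplaced sequences (4 gained, 24 of WT) have no annotation. Letters were counted within 100 bp of summits. Fold, pileup and background gave Poisson p-values that differed from the deposited −log10 p-values by a median of 0.0046, and the limit for a WT call was set with the same formula. Python 3.11.15, numpy 2.4.6, pandas 2.3.3, scipy 1.17.1 and pysam 0.24.0 were used, and the functions were tested on simulated data. Depth was 54661175 tags in WT and 34260362 at 7 d. No test between groups was possible on 1 merged list each.

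Named were the 12 gained peaks with the highest −log10 p-value, the 6 highest at promoters, the 3 highest shared and WT-only peaks, the 5 runs with most peaks, the Ctgf peak, and in each gene list the 4 members whose nearest gained peak had the highest fold, with Cyr61, Ankrd1, Hnf4a and Sox9. The peaks, genes and lists were chosen with earlier results of these data known. Other overlap rules, stricter peaks, other windows and leaving out peaks near WT summits were tried as alternatives.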

Additional observations from a re-analysis of the deposited data

How the results depend on the processing

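No paired analysis was possible because each list pools 3 replicates, and leaving out each replicate could not be run for the same reason. The number of gained peaks stayed within 1.5 times of 1374 under every alternative, from 1087 to 1443. Their share of the 7 d list was 96.6% when 50% of both peaks had to overlap, 97.6% when summits had to lie within 100 bp, 95.4% at a −log10 p-value of at least 10 and 97.4% at a fold of at least 5. The share of WT peaks found at 7 d was 32.1%, 22.4%, 44.1% and 84.0% under the same settings, the last over 25 peaks. The share of gained peaks at promoters was 14.6% with 1000 bp on either side of a start and 15.7% with protein-coding genes only. GGAATG was within 50 bp of the summit in 47.4% and within 250 bp in 73.8% of gained peaks. A gained neighbour was within 5 kb in 5.46% and within 50 kb in 18.4%. A TEAD summit of WT livers was within 100 bp in 44.5%. Genes with a gained summit within 5 kb numbered 412 (1.85% of all genes), with 24 list members (8.82% of members). Within 50 kb there were 2056 (9.25%), with 67 list members (24.6%). The counts changed by construction of the wider or narrower windows. At 5 kb the lists of hepatocyte function, liver transcription factors and genes of other tissues held 0 such members. Each of these lists is too short to tell 0 from the share of all genes. Leaving out gained peaks within 10 kb of a WT summit (an added alternative, chosen after seeing the data) changed none of these values beyond their intervals or by over 1.5 times. Requiring 50% of both peaks to overlap can, by construction, only raise the share gained and lower the share of WT peaks found. What moved the overlap shares under the other settings was not tested. The merged lists limit every value to counting error.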

Other observations

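The fold enrichment of gained peaks had a low tail made of a few sites. Among gained peaks on assembled chromosomes the lowest folds were 1.60 at Gm10801 and 1.99 at Gm10800 on chromosome 2 and 1.80 at Sfi1 on chromosome 11, and 4 gained peaks held 6 or more copies of GGAATG within 100 bp. Of the 17 gained peaks that also overlapped a YAP peak at 3 d, 4 were on unplaced sequences and 5 lay over Ugt1a1 or Hjurp. Outside these, the highest folds belonged to Tspan4 (24.9), 1110034B05Rik (12), Pelo (11.3) and Bcl2, the survival gene (10.9). These sites were picked after their values were seen.

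On the X chromosome, where gained peaks were sparse, 2 of the 14 were 1878 bp apart nearest to Chst7, both intergenic. Of the 14, 1 was at a promoter, that of Mid2 (fold 5.46), and the others included Kdm6a, a histone demethylase gene (6.77), and Zcchc13 (8.73).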
